A study of Mus musculus with 6 samples.

Results

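The genes described here are 35 that serve glycolysis and the response to low oxygen: 3 transporters of glucose and lactate, 16 glycolytic enzymes from hexokinase to lactate dehydrogenase, 3 regulators of flux, 4 genes of the hypoxia-inducible factors (HIF) and the prolyl hydroxylases that control them, and 9 other hypoxia targets outside glycolysis. They were taken by symbol, and every probe set that the platform annotation assigns to exactly 1 of these symbols was used. That gave 77 of the 45101 probe sets of the table, for 33 of the 35 genes, since Gpi1 and Eno1 had no probe set of their own. Of the 77, 74 were tested, for 32 genes. The other 3 are controls of the array maker for Gapdh, and a further 4 probe sets carrying a member's symbol beside others were left out.

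Gene expression was measured on 6 oligonucleotide arrays in ocular lenses of mouse embryos of day 19.5, on a mixed C57BL/6 & FVB/N background. The wild type group held 3 littermate controls in which Notch2 had not been ablated in the lens, and the Notch2 mutant group held 3 embryos with a lens-specific conditional mutation of Notch2. Each array carried RNA of both lenses of 1 embryo, pooled, and arrays of a group are labelled as biological replicates. Array values are given in the order of replicates 1, 2 and 3 throughout. The Cre line, its promoter and the exons it removes are not given in the sources used here, and no treatment was applied. The comparison asked which transcripts differ when the lens lacks Notch2, a receptor of the Notch pathway.

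The log2 values had been centred so that each probe set has a median of 0, and they therefore give differences between arrays and no levels, and the lens identity of the tissue could not be checked by the level of its markers. By their differences, 8 of 11 lens fibre and 4 of 6 lens epithelium markers read lower in mutants. The fibre markers had a median of -0.24, with 1 gene past the threshold, 6 without overlap, and array means of 0.19 to 0.28 in wild type and -0.35 to -0.16 in mutants. The epithelium markers had a median of -0.83, with 1 gene past the threshold, 4 without overlap, and array means of 0.25 to 0.50 in wild type and -0.48 to -0.20 in mutants. Markers of retinal neurons and progenitors stood apart between the groups: all 18 measured genes read higher in mutants, 10 of them past the threshold, with array means of -1.06, -0.47 and -1.42 in the wild types against 0.79, 1.17 and 0.45 in the mutants. In lens tissue analysed in bulk, fewer cells of a type and less RNA per cell cannot be told apart. The arrays also split by their hybridization controls, with wild type 1, wild type 2 and mutant 1 on the low side and wild type 3, mutant 2 and mutant 3 on the high side. Probe sets for Notch2 did not check the genotypes, since no source used here says whether they lie in the removed part.

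Glycolysis breaks glucose down to pyruvate in the cytosol, and lactate dehydrogenase turns pyruvate into lactate when mitochondria do not oxidise it. The ocular lens has no blood vessels of its own, and its mature fibre cells lose their mitochondria, so glycolysis carries much of its energy supply. When oxygen is low, the prolyl hydroxylases no longer mark the HIF alpha subunits for degradation. HIF then binds short DNA elements with the core letters ACGTG or GCGTG and raises the transcription of glucose transporters, most glycolytic enzymes and targets such as Vegfa, Adm and P4ha1.

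The core letters were looked for in the 250 bases before each annotated transcription start, in RefSeq windows of assembly GRCm38.p6, on both strands. Of the 35 members 32 had a window, 50 windows in all, and those of 1 gene can overlap. Ndrg1, Slc2a3 and Epas1 had none. The promoter of Ndrg1, the only member that passed limma's test below, was therefore not searched. ACGTG or its reverse complement CACGT stood in 22 windows (44.0%), against 16.6% of all 32851 windows of that length, and GCGTG or its reverse complement CACGC stood in 26 (52.0%), against 28.2%. Either motif was found in 39 windows (78.0%), against 38.6% of all. By role, 21 of the 27 windows of glycolytic enzymes and 9 of the 13 windows of other hypoxia targets held a match. A match is a description of the letters and does not show that HIF binds there. The 32851 windows were not matched to those of the members for base composition, and its part in these shares was not tested. Printed here are the windows of 5 members with a single window, a log2 difference of at least 0.5 and groups that did not overlap. They are, in the order printed, Hk2 (chr6:82774455-82774704), Pfkl (chr10:78009808-78010057), Pfkp (chr13:6648772-6649021) and Ldhb (chr6:142507958-142508207), all on the minus strand, and P4ha1 (chr10:59323046-59323295), on the plus strand. Each reads 5′ to 3′ in the direction of the gene, and capitals mark the motif matches.
Hk2: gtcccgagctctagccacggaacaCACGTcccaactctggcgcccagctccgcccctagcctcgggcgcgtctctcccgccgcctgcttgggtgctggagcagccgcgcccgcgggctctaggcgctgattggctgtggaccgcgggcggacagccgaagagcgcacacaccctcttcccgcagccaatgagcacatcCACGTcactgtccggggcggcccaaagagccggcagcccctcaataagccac
Pfkl: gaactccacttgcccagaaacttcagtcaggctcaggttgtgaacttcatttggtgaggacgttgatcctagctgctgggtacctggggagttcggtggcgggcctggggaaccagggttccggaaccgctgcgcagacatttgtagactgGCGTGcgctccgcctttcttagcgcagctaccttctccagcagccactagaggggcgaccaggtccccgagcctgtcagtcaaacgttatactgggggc
Pfkp: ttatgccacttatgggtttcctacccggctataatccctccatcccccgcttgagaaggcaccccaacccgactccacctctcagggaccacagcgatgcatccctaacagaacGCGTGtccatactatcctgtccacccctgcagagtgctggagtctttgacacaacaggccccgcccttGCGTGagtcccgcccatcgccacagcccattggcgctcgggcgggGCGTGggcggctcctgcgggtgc
Ldhb: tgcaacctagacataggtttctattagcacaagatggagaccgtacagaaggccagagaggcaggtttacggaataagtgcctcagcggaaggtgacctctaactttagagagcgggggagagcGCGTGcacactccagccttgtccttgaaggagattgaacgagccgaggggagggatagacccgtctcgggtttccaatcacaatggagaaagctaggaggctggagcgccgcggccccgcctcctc
P4ha1: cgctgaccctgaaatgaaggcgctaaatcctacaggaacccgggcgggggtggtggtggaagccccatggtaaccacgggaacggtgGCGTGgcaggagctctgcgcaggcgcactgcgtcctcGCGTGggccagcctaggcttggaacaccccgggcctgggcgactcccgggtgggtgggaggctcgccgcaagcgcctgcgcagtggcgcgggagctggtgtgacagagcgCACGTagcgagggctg
Hk2 carried 2 matches, both ACGTG in reverse complement, while Pfkl and Ldhb carried 1 GCGTG each. Pfkp and P4ha1 carried 3 matches each. The number of matches did not sort these genes by direction, since Pfkl, Hk2 and P4ha1 read lower in mutants and Pfkp and Ldhb read higher.

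Of the 74 tested member probe sets 1 passed limma's test at an adjusted p below 0.05, or 1.35%, against 0.469% of all 45037 tested. That probe set belonged to Ndrg1. At an unadjusted p below 0.05 there were 22 member probe sets, 16 lower and 6 higher in mutants, or 29.7% against 11.6% of all. The 3 mutant arrays did not overlap with the 3 wild type arrays in 28 member probe sets of 18 genes (37.8%), against 17.8% of all probe sets. Of these 28, 20 were lower in mutants, where the share over all probe sets was 9.1%, and 8 were higher, where it was 8.73%. In 12 of the 28 the gap between the groups was under 0.1. Probe sets of the same gene can measure the same transcripts, so these counts are not independent of each other. They need not agree: of the 23 genes with 2 or more probe sets, 12 had probe sets on both sides of 0.

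**Figure D1:**
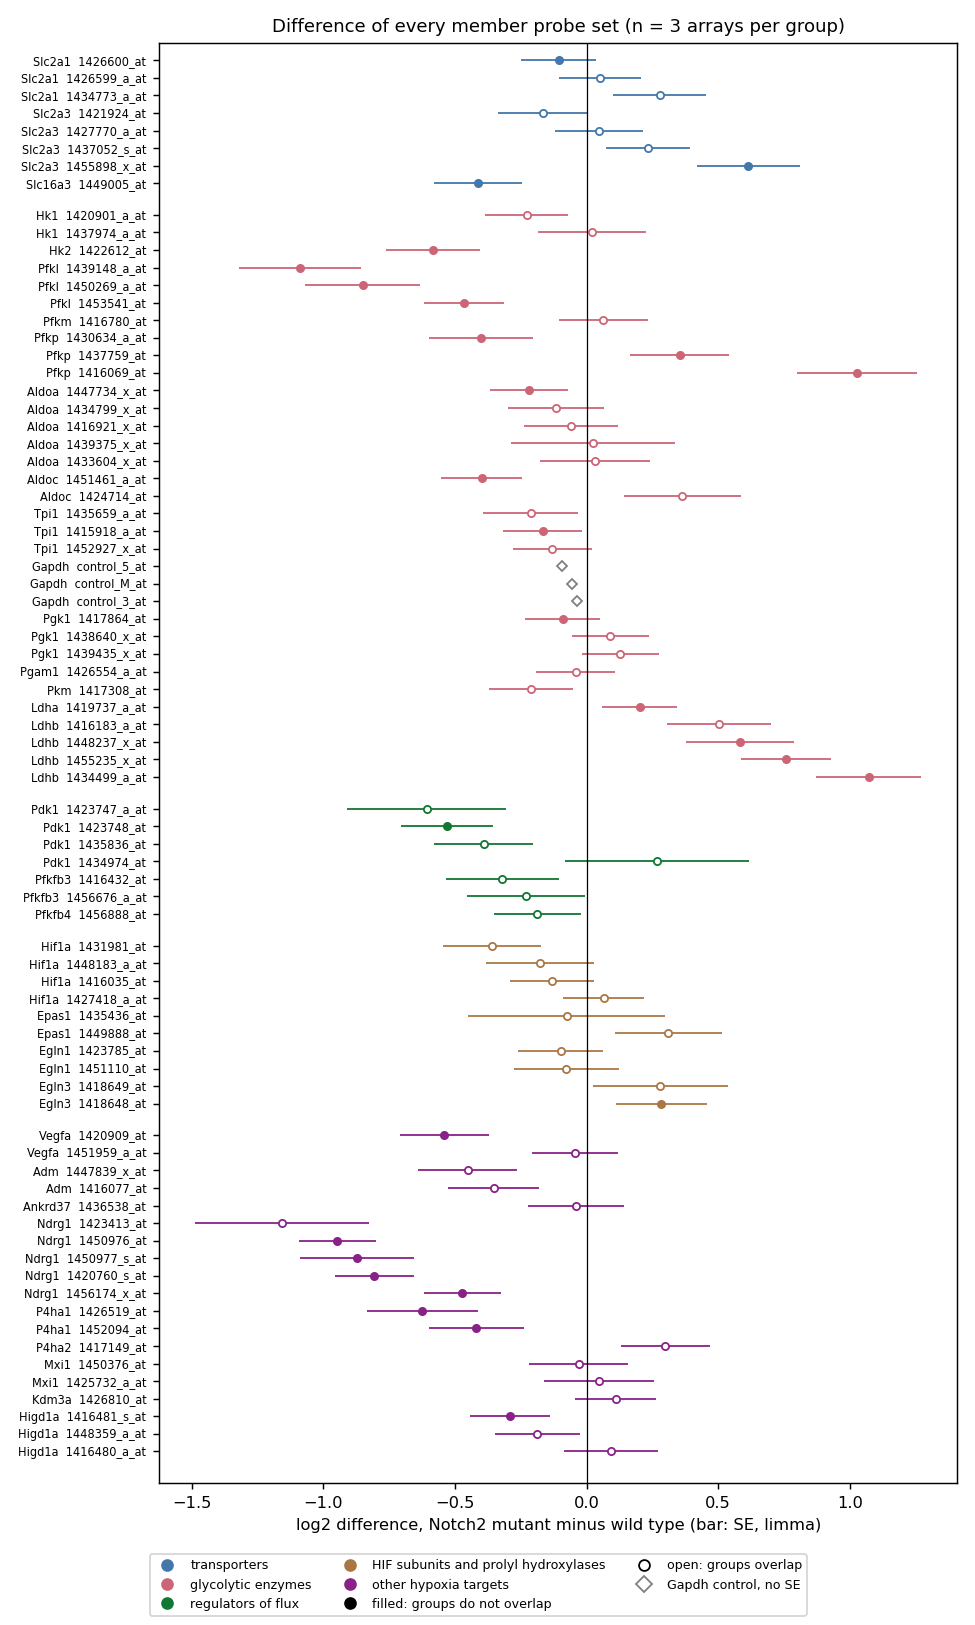
Log2 difference, Notch2 mutant minus wild type, of every member probe set, ordered by role, with limma's standard error as a bar (n = 3 arrays per group). Filled points mark the probe sets whose groups do not overlap, and the 3 grey diamonds are the untested Gapdh controls; Ndrg1 and Pfkl lie farthest to the left and Ldhb and Pfkp farthest to the right.

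Taking for each gene the probe set with the largest spread over all 6 arrays, without regard to genotype, 18 of the 33 measured genes read lower and 15 higher in mutants, with a median of -0.04 against -0.03 over all 18193 genes. The median size of the difference was 0.28, against 0.20 over all genes. A difference of at least 0.5 in either direction was found for 9 of the 33 genes, against 13.9% of all genes: Ndrg1, Pfkl, P4ha1, Pdk1, Hk2 and Vegfa on the low side and Ldhb, Pfkp and Slc2a3 on the high side. The large differences therefore lay in both directions. They depend in part on the probe set taken. As a mean over all probe sets of the gene, Slc2a3 read 0.18, Pfkp 0.33, Pdk1 -0.32 and Vegfa -0.29, all under 0.5 in size. Ndrg1, Pfkl, P4ha1, Hk2 and Ldhb kept at least 0.5, at -0.85, -0.80, -0.52, -0.59 and 0.73. The share of all genes was not taken by that measure. Unless stated otherwise, a value called a difference below is the mutant mean minus the wild type mean on the log2 scale (n = 3 per group), SE is its standard error, and p-values are limma's, adjusted over all 45037 probe sets.

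**Figure D2:**
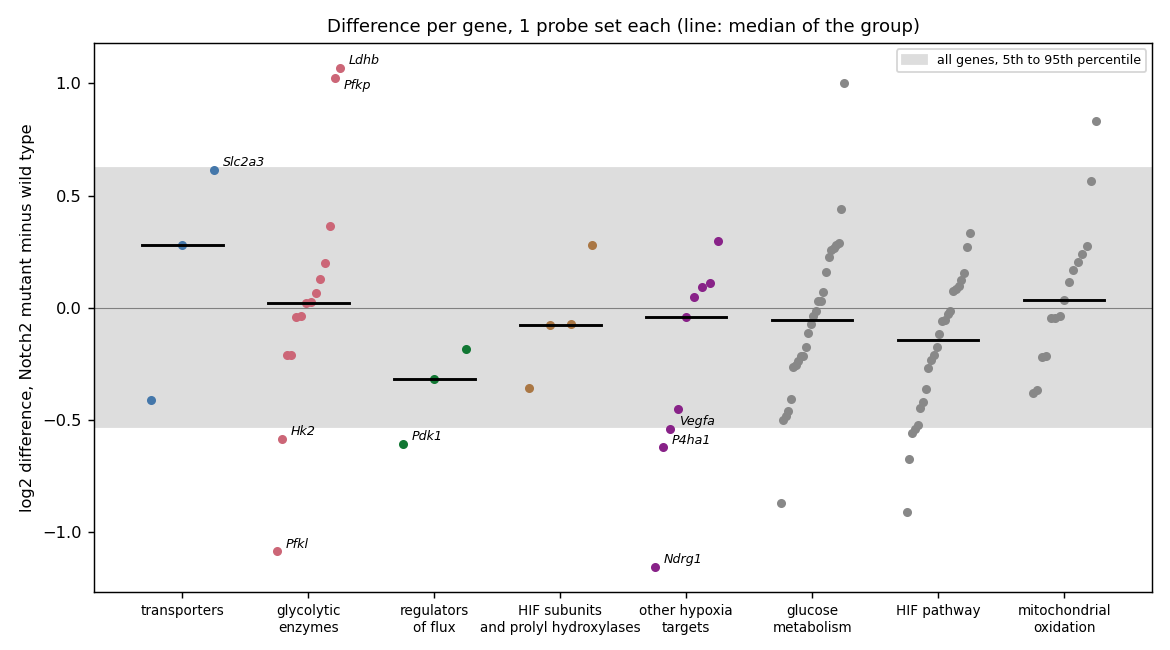
Log2 difference per gene, with 1 probe set each, for the 5 roles of the members and for 3 lists of related genes; the black line is the median of a group and the grey band spans the 5th to the 95th percentile of all genes (-0.53 to 0.62). Members with a difference of at least 0.5 are named, and the medians of the glycolytic enzymes (0.02) and of the other hypoxia targets (-0.04) lie close to 0.

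The transporters did not share a direction, and none of their 8 probe sets passed, with 2 at an unadjusted p below 0.05. Slc2a3, the neuronal glucose transporter, read -0.21, -0.14 and -0.44 in the wild types against 0.18, 0.72 and 0.14 in the mutants by 1455898_x_at. The groups did not overlap, and mutant 2 stood highest, with a difference of 0.61 (SE 0.20, adjusted p = 0.244). Its other 3 probe sets overlapped and read from -0.17 to 0.23. Slc16a3, which exports lactate from glycolytic cells, read 0.45, 0.04 and 0.44 in the wild types against -0.19, -0.04 and -0.06 in the mutants. Wild type 2 lay just above the highest mutant, and the difference was -0.41 (SE 0.17, adjusted p = 0.382). Slc2a1, the widely expressed glucose transporter, read -0.24, -0.11 and 0.08 against -0.08, 0.35 and 0.29 by the probe set with the largest spread. Its groups overlapped, at a difference of 0.28 (SE 0.18, adjusted p = 0.622), and its other probe sets read 0.05 and -0.11.

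Hexokinase traps glucose in the cell by phosphorylating it, and Hk2 is its inducible form. Hk2 read 0.32, 0.15 and 0.15 in the wild types against -0.15, -0.69 and -0.29 in the mutants. All mutants lay below all wild types, but the difference of -0.59 (SE 0.18) did not pass (adjusted p = 0.223). Hk1, the constitutive form, overlapped in both its probe sets, at 0.02 and -0.23.

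Phosphofructokinase makes the committed step of glycolysis and is built from liver (Pfkl), muscle (Pfkm) and platelet (Pfkp) type subunits. Pfkl read 0.89, 0.18 and 0.52 in the wild types against -0.65, -0.85 and -0.18 in the mutants by 1439148_a_at. The groups were separate, with mutant 2 lowest, and the mutants were 2.13-fold lower, at -1.09 (SE 0.23, adjusted p = 0.0813). Both other Pfkl probe sets also had separate groups, at -0.85 (adjusted p = 0.144) and -0.47 (adjusted p = 0.256). None of the 3 passed.

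Pfkp read -0.33, -0.27 and -0.65 in the wild types against 0.47, 1.09 and 0.27 in the mutants by 1416069_at. Every mutant was above every wild type, by 2.04-fold on average, at 1.03 (SE 0.23, adjusted p = 0.0921). Its probe sets did not share a direction: 1437759_at read 0.35 (adjusted p = 0.536), while 1430634_a_at read -0.40 (adjusted p = 0.492). By the latter the wild types were at 0.03, 0.14 and 0.68 and the mutants at -0.26, -0.07 and -0.03. In both of these the groups missed each other by a gap of 0.06 only. Pfkm overlapped, at 0.06 (SE 0.17, adjusted p = 0.930). Per array, the Pfkp value of 1416069_at minus the Pfkl value of 1439148_a_at was -1.22, -0.45 and -1.16 in the wild types against 1.12, 1.94 and 0.45 in the mutants, a difference of 2.11. This pair was chosen after its values were seen and is given without a test. With the means over the 3 probe sets of each gene in place of single ones the difference was 1.13, and the groups stayed separate.

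Between phosphofructokinase and pyruvate, Aldoc apart, no probe set differed by more than 0.22. The 5 probe sets of Aldoa, the main aldolase, lay between -0.22 and 0.03, and the 3 of Tpi1, triose phosphate isomerase, between -0.21 and -0.13. Pgk1, which makes the first ATP of the pathway, lay between -0.09 and 0.13 over 3 probe sets, Pgam1, a phosphoglycerate mutase, read -0.04, and Pkm, the pyruvate kinase of most tissues, read -0.21. The Gapdh controls, along the transcript of the enzyme that follows the aldolase step, read -0.09, -0.06 and -0.04. Aldoc, the brain aldolase, had probe sets on opposite sides. By 1424714_at it read 0.21, -0.55 and -0.54 in the wild types against -0.01, 0.01 and 0.21 in the mutants, with overlap, at 0.36 (SE 0.22, adjusted p = 0.604). By 1451461_a_at it read 0.38, 0.19 and 0.11 against -0.12, -0.11 and -0.29, without overlap, at -0.40 (SE 0.15, adjusted p = 0.350). The array does not settle a direction for Aldoc.

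Lactate dehydrogenase is built from muscle type (Ldha) and heart type (Ldhb) subunits, of which Ldha is the HIF target and Ldhb is rich in oxidative tissues. Ldhb read -0.69, -0.23 and -0.67 in the wild types against 0.72, 0.67 and 0.23 in the mutants by 1434499_a_at. The groups were separate, and the mutants were 2.10-fold higher, at 1.07 (SE 0.20), short of the threshold (adjusted p = 0.0593). All 4 Ldhb probe sets were above 0, the others at 0.76 (adjusted p = 0.0968), 0.58 (adjusted p = 0.296) and 0.50 (adjusted p = 0.367), the last with overlap. Ldha, with 1 probe set, read -0.06, -0.06 and -0.10 against 0.06, 0.08 and 0.24. Its groups were also separate, but the difference was 0.20 (SE 0.14, adjusted p = 0.667). Per array, the Ldhb value minus the Ldha value was -0.63, -0.16 and -0.58 in the wild types against 0.66, 0.59 and -0.02 in the mutants, a difference of 0.87. With the mean over the 4 Ldhb probe sets in place of 1 it was -0.36, -0.04 and -0.39 against 0.51, 0.42 and -0.14, so that the groups overlapped, and the difference was 0.53. This pair too was chosen after its values were seen and is given without a test.

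**Figure D3:**
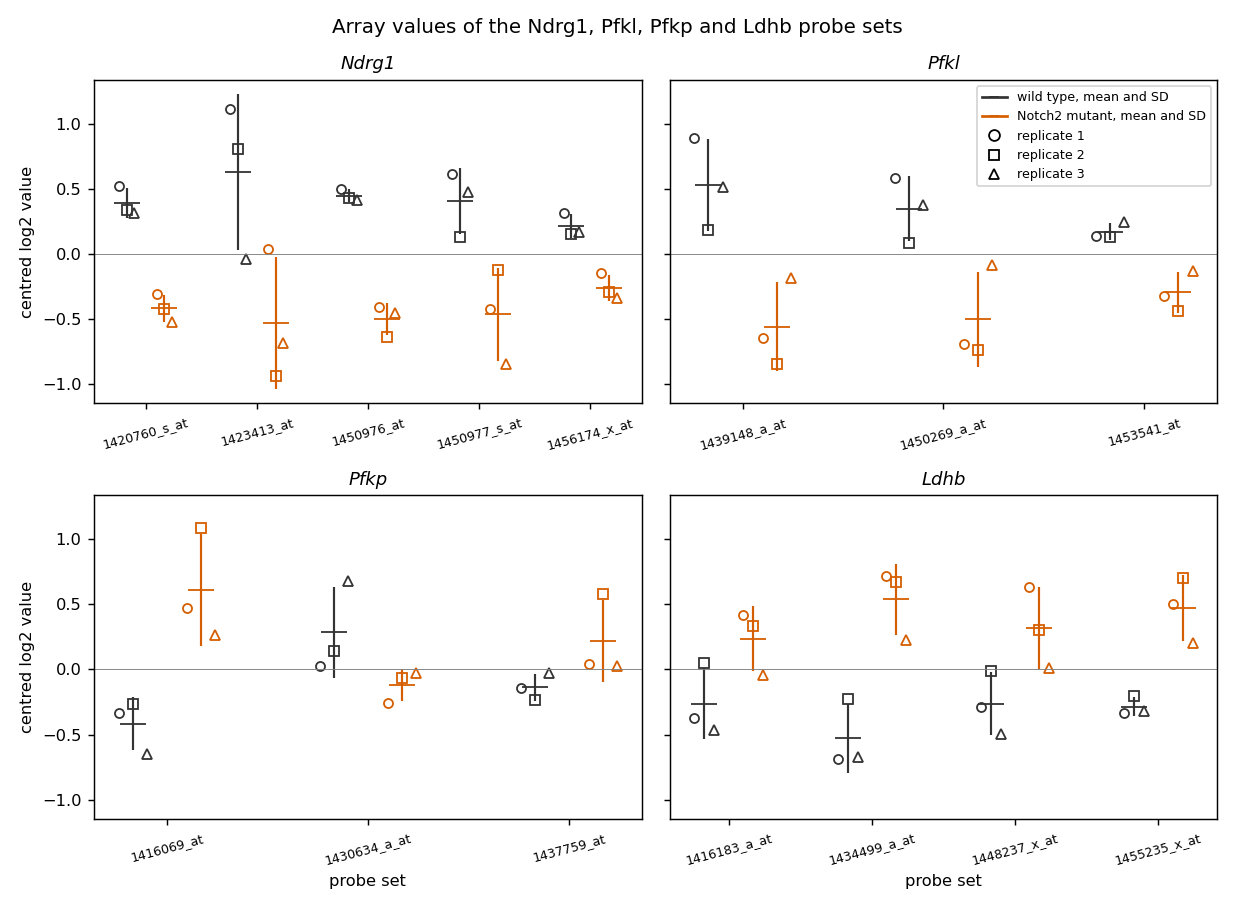
Centred log2 value of each array for every probe set of Ndrg1, Pfkl, Pfkp and Ldhb, wild type in grey and Notch2 mutant in orange, with the mean and SD of each group (n = 3). All Pfkl probe sets and 4 of the 5 Ndrg1 probe sets have every mutant below every wild type, Ldhb lies the other way in 3 of its 4, and the Pfkp probe sets do not share a direction.

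As a role, the 14 measured glycolytic enzymes had 6 genes below and 8 above 0 and a median of 0.02. Over their 30 tested probe sets none passed, 10 had an unadjusted p below 0.05 (5 lower and 5 higher), or 33.3% against the 11.6% of all probe sets, and 15 of the 30 did not overlap (9 lower and 6 higher), against 17.8% of all. Of the 15, 9 belong to Pfkl, Pfkp and Ldhb. With the arrays weighted by limma's array weights, 1 Pfkl, 1 Pfkp and 2 Ldhb probe sets passed (adjusted p = 0.0461, 0.0462, 0.0295 and 0.0459). The weights ran from 0.41 for wild type 3 to 2.96 for wild type 1, and 889 of all probe sets passed, against 211 without weights. With the quantile normalisation repeated, Pfkp and Ldhb passed by 1 probe set each (adjusted p = 0.0412 and 0.0374), where 584 of all probe sets did. The retinal markers given above separated the groups in the same arrays. With each array's retinal mean as a covariate, which leaves little information on genotype itself, Pfkl read -0.01 (SE 0.54), Ldhb 0.11 (SE 0.46), Hk2 -0.19 (SE 0.50) and Pfkp -0.13 (SE 0.50), so that Pfkp turned its direction, with errors too wide to place any of them. The part of retinal transcripts in these differences was not tested beyond that. Within the low and the high side of the hybridization controls, Pfkl read -1.18 and -1.03, Pfkp 0.77 and 1.33, and Ldhb 1.18 and 1.12.

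The 3 regulators of flux all read lower in mutants by the probe set with the largest spread, and none of their 7 probe sets passed. An unadjusted p below 0.05 was found for 1 (14.3%), near the 11.6% of all probe sets. Pdk1 phosphorylates pyruvate dehydrogenase and so keeps pyruvate out of mitochondria. By 1423747_a_at it read 0.57, 0.43 and -0.25 in the wild types against 0.25, -0.79 and -0.53 in the mutants, with overlap, at -0.61 (SE 0.30, adjusted p = 0.497). By 1423748_at the groups were separate, with 0.35, 0.18 and 0.07 against -0.36, -0.57 and -0.07, at -0.53 (SE 0.18, adjusted p = 0.266). Its remaining probe sets read -0.39 and 0.27. Pfkfb3 and Pfkfb4 make fructose 2,6-bisphosphate, the strongest activator of phosphofructokinase. Pfkfb3 read 0.17, 0.10 and -0.04 against -0.02, -0.72 and 0.02, where mutant 2 alone stood apart, at -0.32 (SE 0.22, adjusted p = 0.643), and its second probe set read -0.23. Pfkfb4 read 0.11, -0.07 and 0.08 against 0.07, -0.13 and -0.38, with overlap, at -0.19 (SE 0.17, adjusted p = 0.740).

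Among the HIF subunits and the prolyl hydroxylases no difference stood out: 0 of their 10 probe sets passed in limma, 0 had an unadjusted p below 0.05, and the lowest adjusted p was 0.521. Hif1a, the oxygen-regulated subunit found in most cells, read 0.42, -0.07 and 0.26 in the wild types against 0.07, -0.20 and -0.34 in the mutants by 1431981_at, at -0.36 (SE 0.19), and its other 3 probe sets read -0.18, -0.13 and 0.06. Epas1, which encodes the second alpha subunit, overlapped at -0.08, with wild type 2 far above the other arrays at 1.21, and at 0.31 by its other probe set. Egln1, the main oxygen sensor of normal tissue, read 0.10, 0.08 and -0.18 against -0.08, 0.26 and -0.41, at -0.08 (SE 0.20, adjusted p = 0.928), and its second probe set read -0.10. Egln3, itself a HIF target, read 0.22, -0.15 and -0.53 against 0.54, 0.15 and -0.30, with overlap, at 0.28 (SE 0.26, adjusted p = 0.749). That value was 0.08 without mutant 1, 0.09 without wild type 3, 0.47 without wild type 1 and 0.49 without mutant 3. By its other probe set the difference was also 0.28, and the groups missed each other by a gap of 0.0087. HIF activity is set mainly by protein stability, which arrays do not measure.

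The other hypoxia targets held the single change that passed. Ndrg1, a stress-responsive gene of differentiation that hypoxia induces, fell: 1450976_at read 0.50, 0.43 and 0.41 in the wild types against -0.41, -0.64 and -0.46 in the mutants. The groups lay 0.82 apart, each within a narrow range, and the mutants were 1.93-fold lower, at -0.95 (SE 0.15, adjusted p = 0.0415). The call was lost when any 1 of the 6 arrays was left out. Over all probe sets 7 to 155 passed in these fits, against 211 with all 6 arrays. The adjusted p was 0.204, 0.0840 and 0.0721 without wild type 1, 2 and 3 and 0.108, 0.171 and 0.0785 without mutant 1, 2 and 3, while the difference stayed between -0.99 and -0.88.

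All 5 Ndrg1 probe sets were lower in mutants, 4 of them without overlap. The one with the largest spread, 1423413_at, read 1.11, 0.81 and -0.04 against 0.04, -0.94 and -0.69, so that wild type 3 lay below mutant 1, at -1.16 (SE 0.33, adjusted p = 0.192). The others read -0.81 (adjusted p = 0.0587), -0.87 (adjusted p = 0.130) and -0.47 (adjusted p = 0.233). Averaged over the 5, Ndrg1 was at 0.61, 0.37 and 0.27 in the wild types against -0.25, -0.48 and -0.57 in the mutants, a difference of -0.85. On the low and the high side of the hybridization controls 1450976_at read -0.88 and -0.96. With the retinal mean as a covariate it read -0.79 (SE 0.43, adjusted p = 0.995) and no longer passed. That mean separates the groups and leaves little information on genotype. With it 0 of all probe sets passed, against 211 without it. The part of retinal transcripts in the Ndrg1 difference was not tested beyond that.

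Vegfa, the main angiogenic growth factor and a classical HIF target, read 0.30, 0.16 and 0.11 in the wild types against -0.11, -0.57 and -0.38 in the mutants by 1420909_at. The groups were separate, at -0.54 (SE 0.17, adjusted p = 0.233), but its second probe set overlapped at -0.04. P4ha1, a collagen prolyl hydroxylase subunit, read 0.70, 0.41 and 0.04 against -0.14, -0.52 and -0.04 by 1426519_at, where wild type 3 lay just above mutant 3. Its difference was -0.62 (SE 0.21, adjusted p = 0.275), and its second probe set read -0.42 (adjusted p = 0.417) with a gap of 0.0019 between the groups. The related subunit P4ha2 read 0.30 (SE 0.17, adjusted p = 0.571), on the opposite side. Adm, the vasodilator peptide adrenomedullin, read -0.45 (adjusted p = 0.395) and -0.35 (adjusted p = 0.489), both with overlap.

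Higd1a, a mitochondrial protein induced by hypoxia, read -0.29 (SE 0.15, adjusted p = 0.527) by 1 probe set, with separate groups, and -0.19 and 0.09 with overlap by the others. The remaining hypoxia targets overlapped and lay between -0.04 and 0.11: Kdm3a, a histone demethylase, read 0.11, Mxi1, an antagonist of Myc, 0.05 and -0.03, and Ankrd37, an ankyrin repeat protein, -0.04. Of the 19 tested probe sets in this role 15 were below 0 and 4 above. There were 9 with an unadjusted p below 0.05 (47.4%, against 11.6% of all probe sets). There were 8 without overlap (42.1%), against 17.8% of all, or 9.1% for those lower in mutants. All of these read lower in mutants and came from Ndrg1, Vegfa, P4ha1, Adm and Higd1a, and Ndrg1 alone gave 4 of the 8. By gene, 5 of the 9 targets read below 0 and 4 above, with a median of -0.04.

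Set against each other, the glycolytic enzymes and the other hypoxia targets had nearly the same median difference, 0.02 and -0.04, which is 0.06 apart. Without wild type 3 the hypoxia targets had a median of -0.20 and lay 0.22 below the enzymes, and without mutant 2 these values were -0.14 and 0.14. The distance was 0.14 without mutant 3 as well. It was 0.07 without mutant 1, 0.06 without wild type 1 and 0.01 without wild type 2. By means, the array values of the enzymes were 0.04, -0.11 and -0.07 in the wild types against -0.01, 0.01 and 0.01 in the mutants, with overlap. Those of the hypoxia targets were 0.24, 0.15 and -0.02 against -0.04, -0.24 and -0.10, without overlap by a narrow margin. The mean of the enzymes minus that of the targets was -0.21, -0.26 and -0.05 in the wild types against 0.03, 0.25 and 0.11 in the mutants, a difference of 0.30. The mean of the targets, -0.25, was lower than their median because Ndrg1, P4ha1, Vegfa and Adm lie far below the rest. The range within each role was wider than the distance between the roles: the enzymes ran from -1.09 to 1.07 and the hypoxia targets from -1.16 to 0.30. On the low and the high side of the hybridization controls the medians were 0.24 and 0.01 apart. No test was made over the members, since they were listed with results of these data known.

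**Figure D4:**
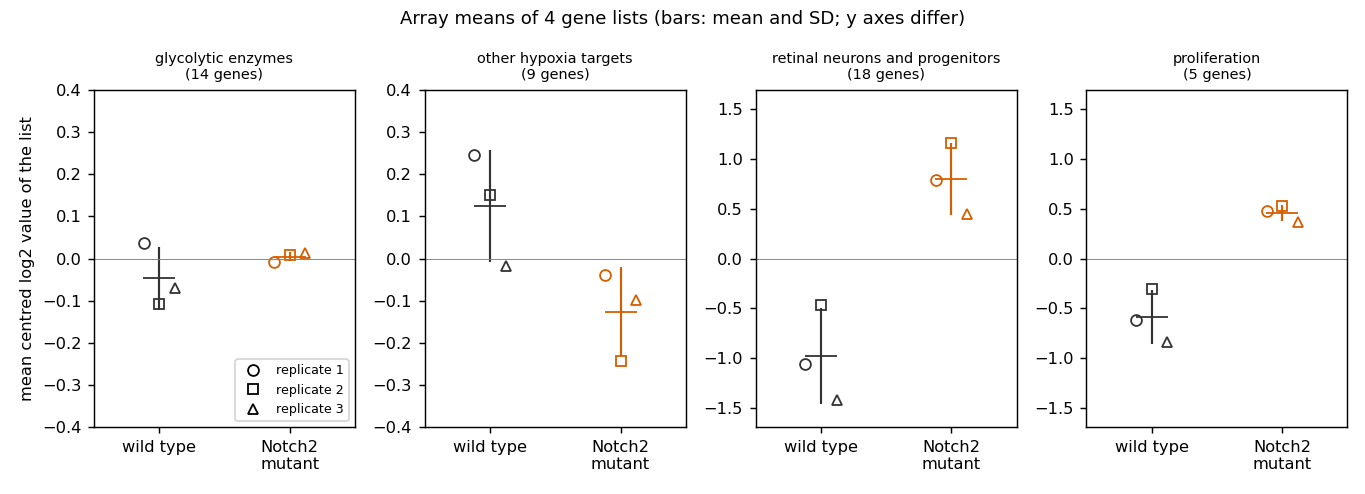
Mean centred log2 value per array of the glycolytic enzymes, the other hypoxia targets, the retinal markers and the proliferation markers, with the mean and SD of each group (n = 3); the vertical axes of the left and right pairs differ. The enzymes overlap between the groups, the hypoxia targets are separate by a narrow margin, and the retinal (wild type -1.42 to -0.47, mutant 0.45 to 1.17) and proliferation means (wild type -0.84 to -0.31, mutant 0.37 to 0.53) are far apart.

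In 3 lists of related genes outside the 35, none passed by limma with 1 probe set per gene, where 0.748% of all genes did. Among 26 measured genes of glucose metabolism, 15 (57.7%) read lower and 11 higher, against 54.1% lower among all genes, with a median of -0.06. An unadjusted p below 0.05 was found for 4 (15.4%), about the 15.6% of all genes. The lowest were Pgam2, the muscle phosphoglycerate mutase, at -0.87 (SE 0.18, adjusted p = 0.0785), with 0.46, 0.64 and 0.19 in the wild types against -0.19, -0.61 and -0.53 in the mutants, and Pdhb, a pyruvate dehydrogenase subunit, at -0.50 (adjusted p = 0.619). The Pdhb value rests on mutant 3 at -1.27, with overlap between the groups, and its other probe set read 0.28. On the high side, Gpd2, the mitochondrial glycerol phosphate dehydrogenase, read 1.00 (adjusted p = 0.346), with wild type 3 far below the others at -1.75. The 4 probe sets of Gpd2 ran from 0.05 to 1.00. Slc16a7, a monocarboxylate transporter, read 0.44 (adjusted p = 0.329).

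Of 24 measured genes of the wider HIF pathway, 17 (70.8%) read lower and 7 higher, with a median of -0.15, against -0.03 over all genes. The 4 with an unadjusted p below 0.05 (16.7%, against 15.6% of all genes) were all lower. Bnip3, a hypoxia-induced receptor of mitophagy, had the lowest p, at -0.91 (SE 0.18, adjusted p = 0.0664), with 0.63, 0.27 and 0.59 in the wild types against -0.69, -0.28 and -0.27 in the mutants and no overlap. Vldlr, a lipoprotein receptor, followed at -0.67 (adjusted p = 0.214). The highest were Fam162a at 0.33 (adjusted p = 0.485) and Hif3a at 0.27 (adjusted p = 0.733). Over all their probe sets Fam162a ran from 0.15 to 0.33 and Hif3a from -0.19 to 0.27. Among 15 measured genes of mitochondrial oxidation the median was 0.03, with 1 at an unadjusted p below 0.05 (6.67%). The ends were Idh2 at -0.38, Cox4i2 at -0.37, Mdh1 at 0.56 and Ppargc1a at 0.83 (adjusted p = 0.433, 0.606, 0.431 and 0.443). Over all their probe sets Idh2 ran from -0.38 to 0.02, Mdh1 from -0.02 to 0.56 and Ppargc1a from 0.30 to 0.83, while Cox4i2 had 1. With array weights, 1 gene of glucose metabolism and 2 of the HIF pathway passed, and with the quantile normalisation repeated 0 did. Over all probe sets 889 and 584 passed in these settings, against 211 in the main fit. The share over all genes was not taken there.

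Markers of other cell types were read in the same arrays. The 8 macrophage markers were all above 0, with a median of 1.32, and their array means ran from -1.37 to -0.01 in wild type and from 0.06 to 0.63 in mutants. All 5 measured proliferation markers were above 0, with a median of 1.03 and 1 past the threshold. The 8 endothelial markers had a median of -0.02, with wild type 2 highest at 0.51, and the 3 measured erythroid genes had a median of -0.13. The part of any of these cells, or of the lower lens markers, in the differences of the glycolysis and hypoxia genes was not tested.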

How the data were processed

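RNA of 6 lens samples was hybridised to Affymetrix arrays, per the labels' protocols. The authors deposited log2 values made with RMA, per the submitters' processing notes, and RMA corrects background, normalises by quantiles and summarises probes. Its version, the base of the logarithm and a genome build are not given in the sources used here, and log2 is RMA's usual scale. Each deposited probe set has a median of 0 over the 6 arrays (to 5e-07), in a centring step that no source describes. Array standard deviations lay between 0.223 and 0.384, and 3 arrays per group limit the precision.

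Of 45037 probe sets that are no controls, 34945 had 1 symbol in the platform annotation, 932 several and 9160 none. Genotype was the one term of a linear model (limma 3.58.1, lmFit with eBayes, under R 4.3.3), which was fitted to all 6 arrays and tested on simulated data, with Benjamini-Hochberg adjustment over the 45037 and a threshold of 0.05. A gene was represented by its most variable probe set over all arrays, since centred values hold no mean. Members, lists, rules and tests were chosen with earlier results of these data known. Given with all array values were members that passed, the 3 largest differences per role, genes with separate groups and at least 0.5, and genes with probe sets at least 0.3 on both sides of 0. Of other pathway genes, those that passed and the 2 largest differences each way were named. Promoter windows came from RefSeq and were searched without a mismatch. Alternatives were another quantile normalisation, array medians subtracted, array weights, a robust prior, a replicate block, a retinal covariate, each array left out, the probe sets above the median in spread, no _x_at and _s_at probe sets, the mean over a gene's probe sets, and 6 more genes counted as hypoxia targets.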

Additional observations from a re-analysis of the deposited data

How the results depend on the processing

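Of the 74 tested member probe sets 1 passed, and 1 again with array medians subtracted, with a robust prior and without _x_at and _s_at probe sets. It was 4 with the quantile normalisation repeated, 7 with array weights, 5 among the probe sets above the median in spread, and 4 with the hybridization control split as a block, an alternative chosen after seeing the data. With the replicate block 3 passed. Deviations of same-numbered arrays correlated by 0.326, -0.142 and 0.258. Wild type and mutant arrays on the same side of the hybridization control split correlated above 0, and all others below 0. The correlations therefore cannot tell whether the numbers pair the embryos. With the retinal mean as a covariate 0 passed (limma, 2 at an unadjusted p below 0.05), and leaving out each array gave 0 each time (16 to 21 at an unadjusted p below 0.05). These shifts follow all probe sets, of which 211 passed at first, 584 with repeated quantiles, 889 with weights, 0 with the covariate and 7 to 155 without 1 array.

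The median of the enzymes was 0.13 with the retinal covariate, -0.036 without _x_at and _s_at probe sets, -0.052 as a mean over probe sets, and from -0.007 to 0.05 without 1 array. That of the other hypoxia targets was -0.18 with array weights, -0.22 with the covariate, and from -0.20 to -0.007 without 1 array. The enzymes minus the targets gave 0.17, 0.36 and from 0.013 to 0.22 in the same settings. With the covariate 5 named genes turned sign: Slc2a3 (-0.25, SE 0.47), Slc16a3 (0.075, SE 0.45), Pfkp (-0.13, SE 0.50), Pfkfb3 (0.21, SE 0.59) and Egln3 (-0.43, SE 0.69). Egln1 did so without mutant 3 (0.089, SE 0.19). Each of these values is smaller in size than its SE, so none of them places a direction. The covariate also leaves little information on genotype itself. The causes were not tested. Over single genes and settings, 211 values kept direction and side of the threshold, 10 newly passed, 7 no longer passed and 6 turned. Centred values hold no levels, so a filter on dim probe sets could not be run and signal over background is unknown.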
